A study of Mus musculus with 16 samples.

Results

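The Schlafen family was followed through 2 steps of dendritic cell development in tumor-free and tumor-bearing mice. Its members were taken by gene name from the array annotation, and the family was chosen by the fall of Slfn14 in macrophage-dendritic cell progenitors (MDPs) of tumor-bearing mice. The array carries 10 probes for 8 Schlafen genes (Slfn1, Slfn2, Slfn3, Slfn4, Slfn5, Slfn8, Slfn9 and Slfn14), out of 39429 probes and 31093 gene names. MDPs and common dendritic cell progenitors (CDPs) were sorted from bone marrow (BM) of female C57/Bl6 mice. The tumor-bearing mice carried orthotopic mammary tumors of 1.5 cm, grown from PyMT-B6, a cell line taken from the MMTV-PyMT mammary tumor model, in which a mammary promoter drives the polyoma middle T oncogene. The controls were tumor-free and of matched age, and no further treatment or allele is given for either. Each of the 4 groups held 4 samples, numbered 2 to 5, each from pooled mice, with a 1-color array for each.

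Schlafen proteins share an amino-terminal core, which cleaves RNA in some members, and the long members, such as Slfn5, Slfn8, Slfn9 and Slfn14, add a helicase-like part. Many family members are known as interferon-induced genes of immune cells. Slfn1 and Slfn2 are short forms linked to growth arrest and quiescence of lymphocytes, and SLFN14 is known for cutting ribosome-bound RNA and for its part in forming platelets and red cells. MDPs give rise to monocytes and to CDPs, and CDPs give rise to dendritic cells.

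All 10 probes lie on chromosome 11 within 315 kb (mm9, chr11:82774907-83089579), in the order Slfn5, Slfn9, Slfn8, Slfn2, Slfn1, Slfn4, Slfn3 and Slfn14. Slfn8, Slfn9 and Slfn14 are read from the minus strand and the other members from the plus strand. The probes that carry the main differences are shown first, as 60-base sequences in 5′ to 3′ direction, all in lower case.
Slfn14 (A_55_P1966144, chr11:83089520-83089579, minus strand): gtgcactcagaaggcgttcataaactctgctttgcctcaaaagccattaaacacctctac
Slfn1 (A_52_P425890, chr11:82935656-82935715, plus strand): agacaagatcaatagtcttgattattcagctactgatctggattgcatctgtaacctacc
Slfn2 (A_51_P423578, chr11:82883791-82883850, plus strand): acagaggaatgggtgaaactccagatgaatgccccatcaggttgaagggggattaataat
None of these shares a run of 16 bases with another probe on the array. A probe of Slfn8 and a probe of Slfn9 do, and they are shown because the values of both genes have to be read with it. In the ungapped alignment with the most matches they agreed at 36 of 48 overlapping bases, with a longest run of 19, and capitals mark the agreeing bases.
Slfn8 (A_55_P2117656, chr11:82815804-82815863, minus strand): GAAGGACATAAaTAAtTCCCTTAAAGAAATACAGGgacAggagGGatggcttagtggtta
Slfn9 (A_55_P2117649, chr11:82793914-82793973, minus strand): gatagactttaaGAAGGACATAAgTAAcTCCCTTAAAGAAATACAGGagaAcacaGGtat
Both also share a run of 16 bases with 1 probe of Psme2b, a proteasome activator subunit gene. How far these probes bind each other's transcripts was not tested, so their values are given as uncertain between the genes. The transcripts of all 10 probes carried the same symbol in RefSeq.

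Levels are log2 signals relative to the array's 75th percentile, so that 0 is the brightness below which 75% of the spots lie. Differences are read between samples for 1 probe. Across probes, levels serve to name the brighter probe of a gene and to sum marker signals. They also served to choose 1 probe per gene and to pick Slfn2 for the list of similar genes. A probe entered the tests if at least 3 of the 4 samples of some group showed it well above background, which left 27433 probes. It was called when a linear model over the 16 arrays (limma) gave both an FDR (Benjamini-Hochberg) under 0.05 and more than a 1.5-fold difference. The exact permutation test of 4 against 4 samples cannot give a two-sided p below 0.0286, the value reached by any probe whose groups do not overlap. Of the Schlafen probes 9 were tested, for 7 genes. Slfn4, a gene induced in activated macrophages, was not well above background on any of the 16 arrays. Its levels lay between -7.66 and -7.27, and no fold change is given for it. Between 58.8% and 71.5% of probes were well above background per array and none was saturated. The arrays lay on 4 slides scanned on 1 day. Slides 2 and 3 held 1 array of each group, slide 1 held no CDP array from tumor-bearing mice and slide 4 no MDP array from tumor-bearing mice. The sort was described by 6 progenitor markers, all above background. Kit, the stem cell factor receptor, was lower in CDPs than in MDPs of tumor-free mice (difference -2.59, limma adjusted p = 3.59e-06). Csf2ra, a GM-CSF receptor chain, was higher (0.79, limma adjusted p = 0.00563). In CDPs with tumor 5 of the 6 were lower and 1 higher, with a median of -0.50 against 0.08 over all tested probes. Limma called 1 of them there, lower, where 1.80% of all tested probes were called. Whether the sorted cells differed between tumor states was not tested.

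**Figure D1:**
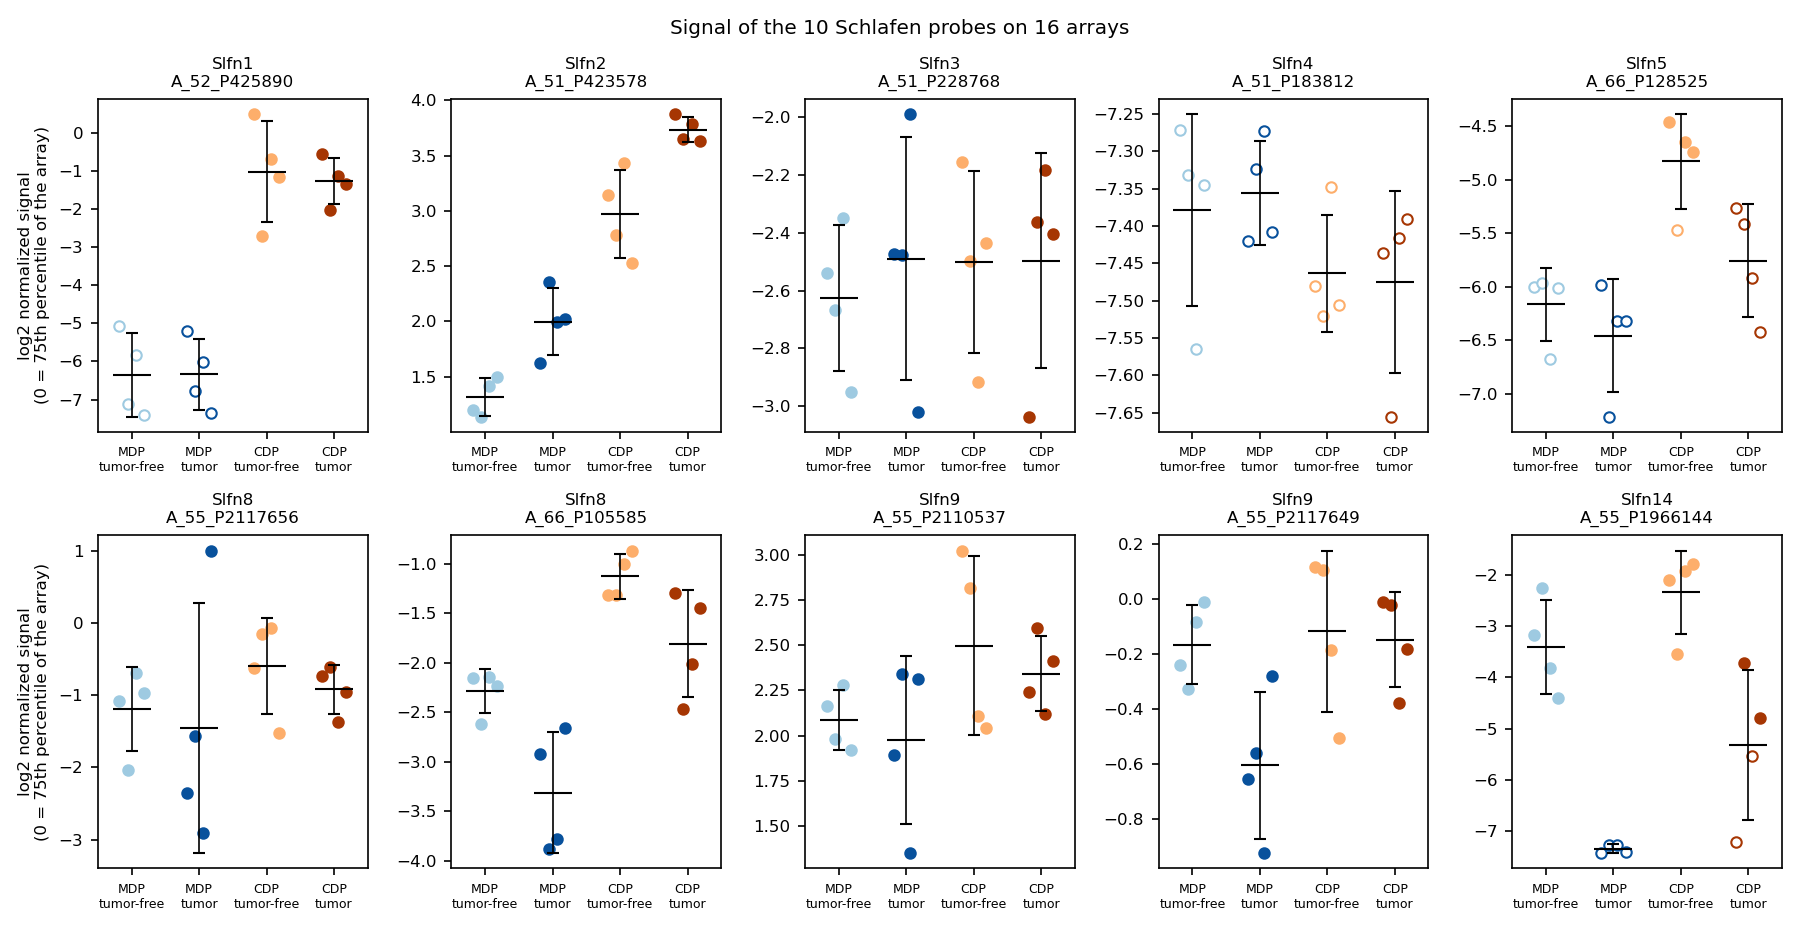
Log2 normalized signal of each Schlafen probe on the 16 arrays, by cell type and tumor state. Filled points were well above background and open points were not; bars give the mean and SD of 4 samples. Slfn14 fell to background in all 4 MDP samples from tumor-bearing mice, and Slfn1 was above background in CDPs and in no MDP sample.

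In tumor-free mice Slfn14 was well above background in every sample of both progenitors, and in tumor-bearing mice in 2 of 4 CDP samples and in no MDP sample. In CDPs from tumor-free mice its levels were -2.11, -3.54, -1.92 and -1.79, all well above background (mean -2.34 ± 0.81, SD, n = 4). In CDPs from tumor-bearing mice they were -7.20, -3.71, -5.54 and -4.80 (mean -5.31 ± 1.46, SD, n = 4), and the samples at -7.20 and -5.54 were not well above background. The groups did not overlap, though the lowest tumor-free sample (-3.54) stood close to the highest tumor-bearing one (-3.71).

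Slfn14 fell by 2.97 log2 units in CDPs with tumor (SE 0.63, 95% interval -4.33 to -1.62, limma adjusted p = 0.0297, exact permutation p = 0.0286). This is 7.85-fold on the measured signals, part of which lie below background, and with normexp background correction the difference was -1.37 (limma adjusted p = 0.0401). Slfn14 entered the tests only through its tumor-free samples, so a fall was favored by the filter. With no filter on dim probes the limma adjusted p was 0.0417. It was the only called probe of the 9 Schlafen probes tested, in a comparison in which 1.80% of all tested probes were called. With slide as a block the difference was -2.67 (limma adjusted p = 0.0381), and within the 3 slides that held both groups the difference ran from -3.62 to -1.92. The call was lost without CDP_Normal replicate 2, 4 or 5 (limma adjusted p = 0.0836, 0.0729 and 0.0945) and without CDP_PyMT replicate 2 or 4 (limma adjusted p = 0.0580 and 0.0922). The SE, interval and adjusted p of 0.0297 pool the spread of all 4 groups, among them the MDP arrays on which the family was selected. There the SD of Slfn14 was 0.087 in MDPs with tumor, which lay at background, and 0.92 in tumor-free MDPs. The fit of the 8 CDP arrays alone uses none of those arrays, and in it the call was lost (limma adjusted p = 0.138).

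The MDP values of Slfn14 are those on which the family was selected, and they are given as a description. In tumor-free mice the levels were -3.18, -2.26, -3.82 and -4.40, all well above background. In tumor-bearing mice they were -7.42, -7.27, -7.26 and -7.41, none well above background and all close together. The means differed by -3.93, and since the lower group has only a bound the signal was at least 3.44-fold lower with tumor. Other array settings changed the size: with normexp the difference was -1.53. Slfn14 was 1 of the 9 Schlafen probes called in MDPs, where 0.0656% of all tested probes were called, and nothing is read from this count.

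Markers of platelets and red cells, in which SLFN14 is known to act, were set beside it. Of 12 platelet and megakaryocyte markers 10 were tested, and limma called none in either tumor comparison (0 called by the methods' t-test). An unadjusted limma p under 0.05 was reached by 3 in MDPs and 0 in CDPs, and by 2853 and 3753 of the 27433 tested probes. Their median change was -0.72 in MDPs (9 lower, 1 higher) and -0.25 in CDPs (7 lower, 3 higher). Over all tested probes the medians were -0.12 and 0.08. The summed linear signal of the tested platelet markers was taken in units of the array's 75th percentile. It ran from 2.41 to 4.22 in tumor-free MDPs and from 1.41 to 3.38 with tumor. In CDPs it ran from 3.06 to 4.02 without and from 2.13 to 4.17 with tumor. Of 14 erythroid markers 12 were tested. Their sum ran from 6.86 to 11.51 in tumor-free MDPs against 6.10 to 8.08 with tumor, and from 5.11 to 14.5 in tumor-free CDPs against 5.30 to 7.67 with tumor. The erythroid markers had a median change of -0.65 in MDPs (11 lower, 1 higher) and -0.81 in CDPs (8 lower, 4 higher). Limma called none in either tumor comparison (0 called by the methods' t-test), with 6 in MDPs and 4 in CDPs at an unadjusted limma p under 0.05. The part of these cells in the level of Slfn14 was not tested, and in sorted bulk samples fewer cells of a type and less RNA per cell cannot be told apart.

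**Figure D2:**
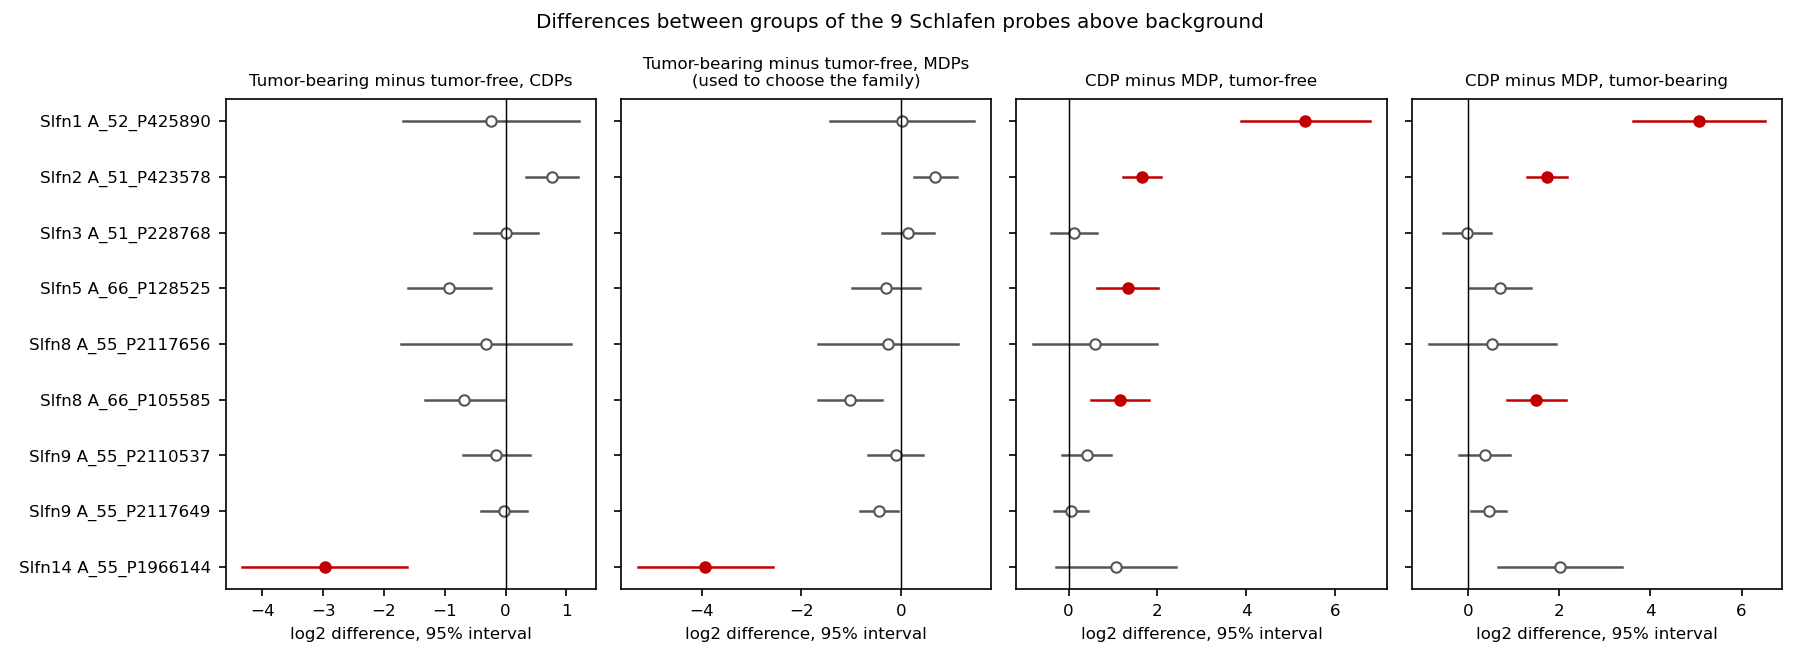
Differences between groups (log2, points) with 95% intervals from the linear model, for the 9 tested Schlafen probes in 4 comparisons. Filled red points were called; in the MDP panel the values chose the family and carry no test. The horizontal scale differs between panels.

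Slfn1, the family's founding member, separated the progenitors most widely. In MDPs it was not well above background on any of the 8 arrays, with levels from -7.40 to -5.08. In CDPs from tumor-free mice the levels were 0.49, -2.71, -0.70 and -1.18, and in CDPs from tumor-bearing mice they were -0.56, -2.03, -1.14 and -1.35, all well above background. No CDP sample came near an MDP sample.

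Slfn1 was at least 18.1-fold higher in CDPs than in MDPs of tumor-free mice (fitted log2 difference 5.33, SE 0.68, limma adjusted p = 0.000349) and at least 15.2-fold higher in tumor-bearing mice (5.07, SE 0.68, limma adjusted p = 0.000452). With slide as a block the differences were 5.33 and 5.36, and within slides they ran from 3.12 to 7.89 in tumor-free and from 5.64 to 6.01 in tumor-bearing mice. With normexp they were 2.36 and 2.70, and both stayed called. Slfn1 entered the tests only through its CDP samples, so a difference from MDPs was favored by the filter. With no filter on dim probes both differences stayed called. With tumor Slfn1 in CDPs differed by -0.25 (95% interval -1.70 to 1.2, limma adjusted p = 0.910), an interval that leaves room for more than a doubling or halving.

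Slfn2, which holds T cells and monocytes in quiescence, was well above background in all 16 samples and ordered the 4 groups. Its levels were 1.2, 1.14, 1.42 and 1.50 in tumor-free MDPs (mean 1.31 ± 0.17, SD, n = 4) and 1.63, 2.36, 2.0 and 2.02 in MDPs with tumor (mean 2.0 ± 0.30, SD, n = 4). They were 3.14, 2.78, 3.43 and 2.53 in tumor-free CDPs (mean 2.97 ± 0.40, SD, n = 4) and 3.88, 3.65, 3.79 and 3.63 in CDPs with tumor (mean 3.74 ± 0.12, SD, n = 4). No 2 neighbors in this order overlapped.

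Slfn2 was 3.15-fold higher in CDPs than in MDPs of tumor-free mice (log2 difference 1.66, SE 0.20, limma adjusted p = 0.000243) and 3.33-fold higher in tumor-bearing mice (1.74, SE 0.20, limma adjusted p = 0.000135). Both were called under every alternative tried, with differences from 1.50 to 1.86. The tumor difference in CDPs was 0.76, or 1.70-fold (95% interval 0.34 to 1.19), and did not pass the test (limma adjusted p = 0.0733, exact permutation p = 0.0286). It did pass with slide as a block (0.68, limma adjusted p = 0.0326), without CDP_Normal replicate 4 (0.92, limma adjusted p = 0.0429), and among probes above background on all 16 arrays (limma adjusted p = 0.0499). It was positive within each of the 3 slides that held both groups, from 0.35 to 0.98. In MDPs, the cells used for the choice, the tumor difference was 0.68. Of 11 neutrophil markers on the array, 8 were higher and 3 lower in CDPs with tumor (median 0.61, against 0.08 over all tested probes). Lcn2 and Elane were called, both higher (2.70 and 1.11), where 1.80% of all tested probes were called. The sum of all 11 markers ran from 63.0 to 95.3 without and from 113.1 to 151.5 with tumor. Their part in the Slfn2 difference was not tested.

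Across the family, 4 of the 9 tested probes were called in CDPs against MDPs of tumor-free mice, all higher in CDPs (Slfn1, Slfn2, Slfn5 and 1 of 2 Slfn8 probes), where 6.10% of all tested probes were called. In tumor-bearing mice 3 were called, again all higher in CDPs (Slfn1, Slfn2 and the same Slfn8 probe), where 7.26% of all were called. Slfn1 and Slfn5 entered the test only through their CDP samples, so a difference from MDPs was favored in them by the filter. Some markers of other cells were called in the same comparisons. Of 8 monocyte and macrophage markers 2 were called higher in CDPs of tumor-free mice and 3 in tumor-bearing mice, led by the lysozyme gene Lyz2 (2.29 and 2.75), and their summed signal ran from 37.4 to 48.5 in MDPs and 53.7 to 78.0 in CDPs without tumor, and from 33.6 to 48.1 and 68.8 to 78.7 with tumor. Of 6 tested T and NK cell markers 1 was called, Nkg7, lower in CDPs (-3.12 and -2.78). Without tumor 4 of the 6 were higher in CDPs and 2 lower (median 0.01). With tumor 5 of the 6 were higher and 1 lower (median 0.61). Of the 12 erythroid markers 4 and 3 were called lower. Without tumor 3 of the 12 were higher in CDPs and 9 lower, and with tumor 4 were higher and 8 lower. Of the 11 neutrophil markers 2 were called lower in CDPs without tumor and 1 with tumor, led by the elastase gene Elane (-1.85 and -0.81). Without tumor 6 of the 11 were higher in CDPs and 5 lower, and with tumor 7 were higher and 4 lower. Their sum without tumor ran from 103.7 to 153.7 in MDPs and from 63.0 to 95.3 in CDPs. With tumor it ran from 109.3 to 184.0 in MDPs and from 113.1 to 151.5 in CDPs, and these ranges overlapped. Of 6 plasmacytoid dendritic cell markers Bst2 was called higher in CDPs without tumor (0.80). Their part in the Schlafen differences was not tested. Slfn14 is a description here, since MDP values chose it: its difference was 1.07 without and 2.03 with tumor, and it was called in neither state.

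Slfn5, a long interferon-induced member, was close to the limit of detection. Tumor-free CDPs had levels of -4.46, -5.47, -4.65 and -4.75, of which that at -5.47 was not well above background. The other 12 samples lay between -7.21 and -5.26, none well above background. Slfn5 was at least 1.30-fold higher in tumor-free CDPs than in tumor-free MDPs (fitted difference 1.33, SE 0.32, limma adjusted p = 0.0212), and in CDPs with tumor it differed by -0.92 (limma adjusted p = 0.180). Among 11 alternatives other than leaving out an array, 3 lost the call with the direction kept and 1 reversed the difference. The reversal came with normexp (-0.14, limma adjusted p = 0.928), and quantile normalization was among the losses (1.1, limma adjusted p = 0.311). The call was also lost without CDP_Normal replicate 2 or 4 (limma adjusted p = 0.0727 and 0.0633) and without MDP_Normal replicate 4 (limma adjusted p = 0.0692).

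The 2 Slfn8 probes gave different pictures of this long-form gene. The brighter probe, the one that matches Slfn9, had means of -1.19, -1.46, -0.59 and -0.91 in tumor-free MDPs, MDPs with tumor, tumor-free CDPs and CDPs with tumor, and was called in no comparison (limma adjusted p of 0.557 or more for the 3 tested). Its MDP_PyMT replicate 5 stood at 1.01 beside -2.35, -1.57 and -2.91 in the same group. Without that array the difference between CDPs and MDPs of tumor-bearing mice went from 0.54 to 1.36 and passed the test (limma adjusted p = 0.0489).

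The dimmer Slfn8 probe (A_66_P105585, chr11:82830985-82831044) has no such match and was well above background in all 16 samples. Tumor-free MDPs had levels of -2.15, -2.61, -2.15 and -2.23, and tumor-free CDPs of -1.32, -1.32, -1.0 and -0.87. MDPs with tumor had -2.93, -3.88, -3.78 and -2.66, and CDPs with tumor -1.30, -2.47, -2.01 and -1.45. CDPs lay above MDPs without overlap in both states.

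This Slfn8 probe was 2.24-fold higher in CDPs of tumor-free mice (difference 1.16, SE 0.30, limma adjusted p = 0.0332) and 2.84-fold higher in CDPs of tumor-bearing mice (1.51, SE 0.30, limma adjusted p = 0.00799). The tumor-free call was lost on leaving out any of its 8 arrays (limma adjusted p of 0.0564 to 0.0900, with differences of 1.05 to 1.22), and with normexp (0.77, limma adjusted p = 0.103). The tumor-bearing call held in all 8 and was lost when only the groups compared were fitted (limma adjusted p = 0.0788) and with the methods' t-test (adjusted p = 0.130). The tumor difference was -0.68 in CDPs (limma adjusted p = 0.330) and, in the cells used for the choice, -1.03 in MDPs.

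Slfn3 and Slfn9 passed no test, and their intervals bound what could have been missed. Slfn3, known from T cell activation and gut epithelium, had group means of -2.63, -2.49, -2.50 and -2.50 in tumor-free MDPs, MDPs with tumor, tumor-free CDPs and CDPs with tumor. Its tumor difference in CDPs was 0.005 (95% interval -0.52 to 0.53). The brighter Slfn9 probe had means of 2.09, 1.97, 2.50 and 2.34 in the same order, and its difference between CDPs and MDPs was 0.41 in tumor-free mice (95% interval -0.14 to 0.96, limma adjusted p = 0.511). The other Slfn9 probe, which matches Slfn8, had means of -0.17, -0.60, -0.12 and -0.15. Neither gene was called in any comparison tested by limma, and the interval of Slfn9 includes a 1.5-fold difference.

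Some probes varied with the slides. Slide means took up 60.9% of the variance of the brighter Slfn8 probe over the 16 arrays, 69.4% for its matching Slfn9 probe, 47.8% for the other Slfn9 probe and 55.0% for Slfn4, which was below background, against 0.17% for Slfn14, 11% for the dimmer Slfn8 probe and 19% for Slfn2. After group means were removed, the matching Slfn8 and Slfn9 probes correlated at r = 0.78 over 16 arrays and the 2 Slfn9 probes at r = 0.80, while the 2 Slfn8 probes correlated at 0.41. The arrays share slides, and the probes of the matching pair share bases.

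No Schlafen probe changed with tumor by a detectably different amount in CDPs and in MDPs. Of 9 probes limma called 0 for the difference of the tumor changes (limma adjusted p of 0.748 to 0.981; 0 at an unadjusted p under 0.05), where 0.0146% of all tested probes were called. For Slfn14 the change in CDPs minus that in MDPs was 0.95, with an interval from -0.96 to 2.87, and is a description.

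**Figure D3:**
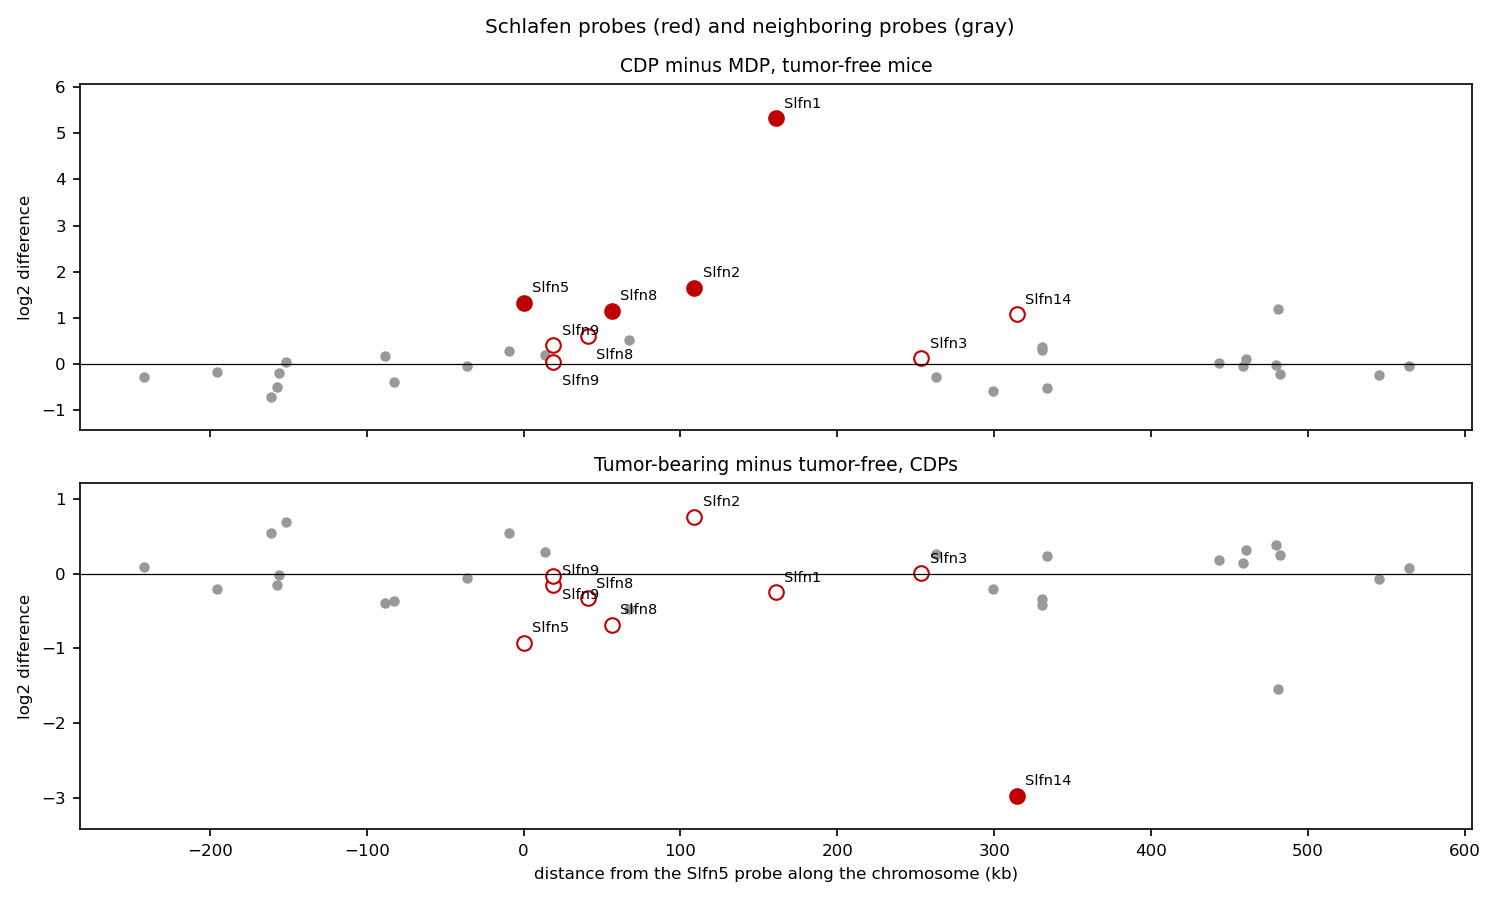
Log2 differences of the 9 tested Schlafen probes (red; filled when called) and of the 25 tested probes of other genes (gray) against the distance in kb from the Slfn5 probe. The upper panel gives CDPs minus MDPs in tumor-free mice and the lower panel tumor-bearing minus tumor-free CDPs; Slfn1 and Slfn14 lie farthest from 0.

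The genes around the cluster were listed beside it. Of 29 probes of other genes inside the cluster or within 250 kb of it, 25 were tested. Their median difference between CDPs and MDPs of tumor-free mice was -0.03, and that between tumor-bearing and tumor-free CDPs was 0.07. The widest of these differences without a call was that of 1 of 2 Mmp28 probes (Mmp28 encodes a matrix metalloproteinase), at -1.54 in CDPs with tumor (limma adjusted p = 0.400). The only one called was a probe of Lig3, a DNA ligase, lower in CDPs than in MDPs of tumor-free mice (-0.71, limma adjusted p = 0.0432). This is 1 of the 25, where 6.10% of all tested probes were called. In CDPs with tumor 0 of the 25 were called, where 1.80% of all were. Nothing is read from these counts. The step along the chromosome from Slfn1 over Slfn4 to Slfn3 went from the widest difference between progenitors to none detected.

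Start sites were looked at in the RefSeq promoters (GRCm38.p6, 250 bases before to 50 after each start), of which 9 belong to the 8 genes. GAAANNGAA, a core of the sites bound by interferon regulatory factors, was present on either strand in 5 of the 9, against 8.56% of all 32851 promoters. It lay in Slfn5, Slfn8, Slfn9 and Slfn14, the long-form genes, and Slfn8 counts for 2 because its pair of overlapping starts holds the same match. The match of Slfn9 has the same 9 bases as that of Slfn8, and the promoters of these genes share a run of 20 bases. The matches of Slfn8 and Slfn9 are therefore not independent of each other. TTCNNNGAA, the site form bound by STAT factors, was present in none of the 9, against 8.30% of all. The match of Slfn14 began 197 bases before the start, with the motif in capitals.
Slfn14 (GRCm38.p6, chr11:83286900-83286939, minus strand): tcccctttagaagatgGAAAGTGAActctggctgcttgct
After the sequences were read, the longest run common to the promoters of Slfn1, Slfn2, Slfn3 and Slfn4 was searched for. The search gave a run of 9 bases, ACTTCCTGG, so its presence in these promoters was fixed by the search. It holds in 0.843% of all promoters on either strand, a share given only as a description. It began 74, 55, 42 and 73 bases before the start and is shown in capitals, since Slfn1 and Slfn2 were higher in CDPs while Slfn3 was not called and Slfn4 not detected.
Slfn1 (GRCm38.p6, chr11:83116730-83116769, plus strand): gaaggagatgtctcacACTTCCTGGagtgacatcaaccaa
Slfn2 (GRCm38.p6, chr11:83065041-83065080, plus strand): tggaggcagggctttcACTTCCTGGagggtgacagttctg
Slfn3 (GRCm38.p6, chr11:83191272-83191311, plus strand): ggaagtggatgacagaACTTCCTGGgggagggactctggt
Slfn4 (GRCm38.p6, chr11:83175097-83175136, plus strand): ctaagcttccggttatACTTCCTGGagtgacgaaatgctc
A match of letters describes the window and does not show a bound site.

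**Figure D4:**
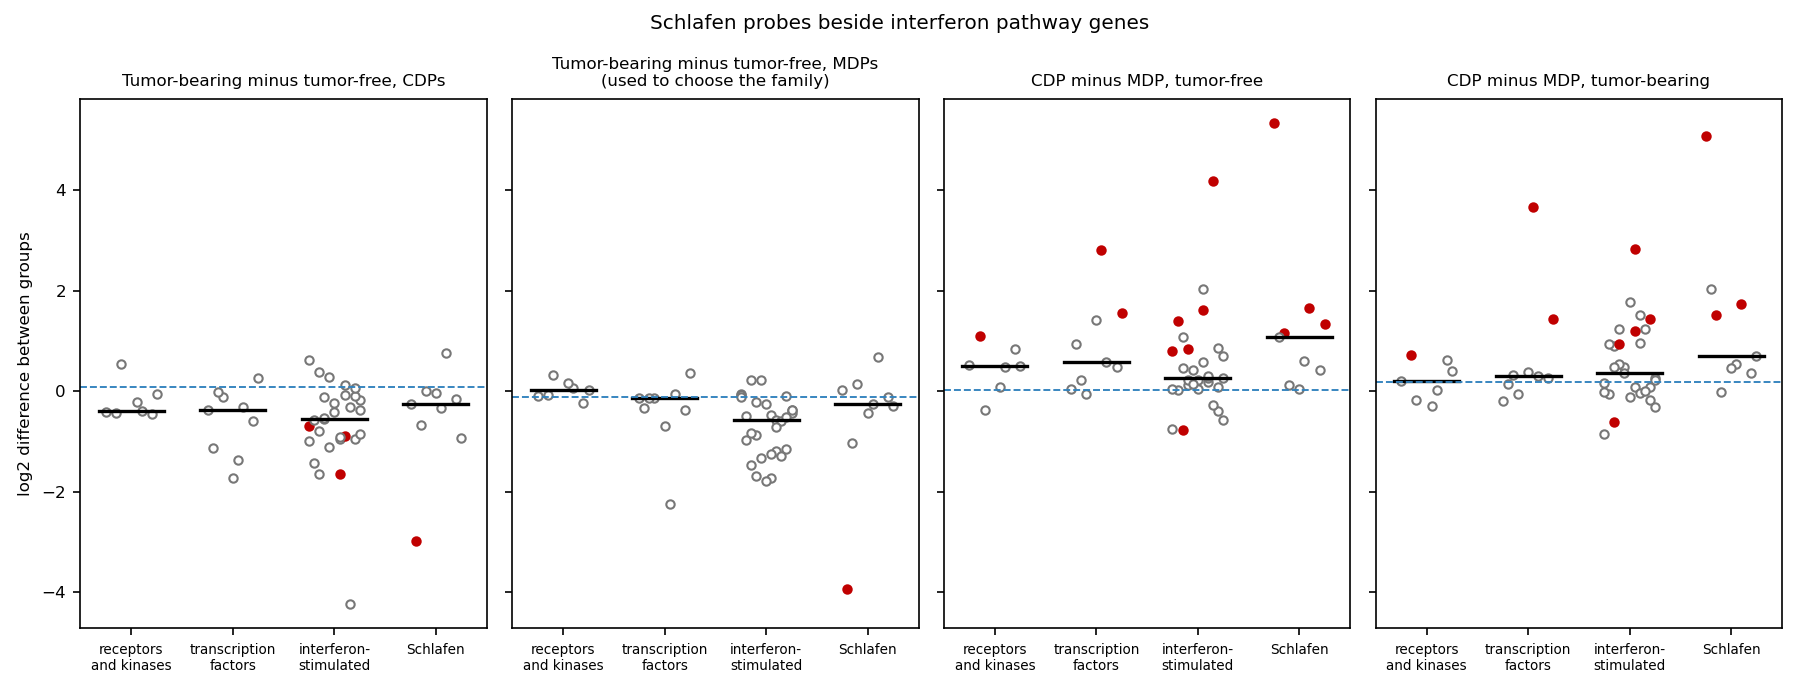
Log2 differences of interferon pathway genes (1 point per gene) and of the 9 tested Schlafen probes in 4 comparisons. Filled red points were called, black lines are medians of a list and the dashed blue line is the median of all tested probes; 27 of 29 interferon-stimulated genes lie below 0 in MDPs with tumor and 24 in CDPs with tumor.

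Interferon pathway genes, of which the family is a part, were read from 3 lists. Of 30 interferon-stimulated genes 29 were tested. In CDPs with tumor 24 of them were lower and 5 higher, with a median of -0.56 against 0.08 over all tested probes. The 3 called by limma, where 1.80% of all tested probes were called, were all lower, and the methods' t-test called 0. They were Usp18, which removes the ISG15 tag (-1.65, limma adjusted p = 0.0193), Irgm1, an immunity-related GTPase (-0.89, limma adjusted p = 0.0473), and Bst2, the tetherin gene (-0.69, limma adjusted p = 0.0373). Ifit3 had the widest difference, -4.24, and did not pass (limma adjusted p = 0.0567); it was well above background in 4 of 4 tumor-free and 1 of 4 tumor-bearing CDP samples.

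In MDPs with tumor 27 of the 29 were lower, with a median of -0.58 against -0.12 over all tested probes. Limma called none of them there, where 0.0656% of all tested probes were called (0 by the methods' t-test). An unadjusted limma p under 0.05 was reached by 12 of the 29 and by 2853 of the 27433 tested probes. In CDPs against MDPs of tumor-free mice 5 of the 29 were called higher, where 6.10% of all tested probes were called. Among them were Ifit3 by 4.17 (limma adjusted p = 0.0271), Usp18 by 1.61 (limma adjusted p = 0.00685) and Oas3, an oligoadenylate synthetase, by 1.40 (limma adjusted p = 0.0452). Gbp3 was called lower (-0.77, limma adjusted p = 0.00508). Gbp3, a guanylate-binding GTPase, is named for its direction, after its value was seen. The median of the list in this comparison was 0.26, against 0.02 over all tested probes. Ifit3 was well above background in 1 of the 4 tumor-free MDP samples, and it entered the tests only through tumor-free CDPs, so a difference was favored by the filter.

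Of 9 interferon transcription factors, Irf7 and Irf5 were called higher in CDPs, in tumor-free mice by 2.80 (limma adjusted p = 0.0130) and 1.55 (limma adjusted p = 3.39e-05) and in tumor-bearing mice by 3.66 (limma adjusted p = 0.00242) and 1.44 (limma adjusted p = 5.72e-05). Over all tested probes 6.10% were called in CDPs against MDPs of tumor-free mice and 7.26% in tumor-bearing mice. In CDPs with tumor 8 of the 9 factors were lower and limma called none, where 1.80% of all tested probes were called (0 by the methods' t-test). An unadjusted limma p under 0.05 was reached by 5 of the 9 and by 3753 of the 27433 tested probes. Of 7 receptors and kinases the kinase Jak2 was called, higher in CDPs by 1.09 in tumor-free mice (limma adjusted p = 0.00125) and by 0.73 in tumor-bearing mice (limma adjusted p = 0.0162). Ifnar1 and Ifnar2, which form the type I interferon receptor and are named for that role after their values were seen, were called in neither tumor comparison, with differences of -0.42 and -0.40 in CDPs.

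Genes that followed the members over the 16 arrays were listed by Pearson r, as a description with 1 probe per gene. The closest to Slfn14 were Mcoln1, a lysosomal cation channel (r = 0.85), 4931406H21Rik (0.85) and Rassf7 (0.85). The closest to Slfn2 were Tgfbi, a secreted matrix protein made by macrophages (r = 0.98), Ccdc109b, an inner mitochondrial membrane channel subunit (0.98), and Ceacam2 (0.97). Tgfbi had group means of 0.90, 1.55, 2.53 and 3.62 in the order in which Slfn2 had 1.31, 2.0, 2.97 and 3.74. All these arrays share the same 4 groups, which set most of such an r.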

How the data were processed

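RNA of 16 sorted samples (4 groups of 4) was labeled with Cy5 and hybridized to 1-color Agilent mouse arrays. The authors deposited spot tables of Agilent Feature Extraction 11.5.1.1, whose processed, mean and background signals are spot intensities on a linear scale, with probe positions on mm9. They also deposited a table of log2 values for 26793 probes, 9 of them Schlafen, used as an alternative. Its selection is not stated, and each of its columns correlated best with its own array.

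Control and outlier spots were dropped, spots of a probe were averaged as log2 processed signal after subtracting the 75th percentile of its array, and group means were fitted over the 16 arrays with limma 3.58.1 (R 4.3.3). Sequences were read with Python from the spot tables and from RefSeq (GRCm38.p6), whose coordinates were not converted. Protein sequences were not used here.

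The named genes are all Schlafen probes, the 3 genes closest to Slfn14 and Slfn2, called neighbors, and up to 4 members of each list. The members and lists were chosen with earlier results of these data known. The labels do not say that a number marks a shared mouse or day, and p-values measure the spread between these pooled samples. The number of arrays limits the precision. The fits were tested on simulated data. Alternatives were other background corrections, scalings, filters, thresholds, blocks and tests, the deposited table, and leaving out each array.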

Additional observations from a re-analysis of the deposited data

Results flagged for a closer look

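A single sample stood apart from the rest of its group in 2 of the 40 groups of 4 formed by the 10 Schlafen probes, by the ratio of its gap to the range of the group, a rate that chance alone gives in about 1 in 20 groups. Slfn5 in MDP_Normal replicate 4 was at -6.67, with the nearest other sample of its group at -6.01. Slfn4 in CDP_PyMT replicate 3 was at -7.66, with the nearest at -7.44. Neither was well above background. Without MDP_Normal replicate 4 the Slfn5 difference between CDPs and MDPs of tumor-free mice was 1.16 (limma adjusted p = 0.0692).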

How the results depend on the processing

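Slfn1 and Slfn2 kept their direction and their calls in CDPs against MDPs, in both tumor states, under every alternative that gave a value. The number of Schlafen probes called in CDPs with tumor was 1; it was 0 when only the groups compared were fitted, with the replicate block and with the methods' t-test, and 2 at an FDR under 0.10 and with slide as a block. The 1 called was Slfn2, and not Slfn14, among probes above background on all 16 arrays and without CDP_Normal replicate 4. The number on leaving out 1 array was 0 to 1. In MDPs it was 1, and 0 with normexp, quantile normalization, no filter, only probes above background on all 16 arrays, the deposited table, only the groups compared, the replicate block and the methods' t-test; leaving out 1 array gave 0 each time. In CDPs against MDPs of tumor-free mice it was 4, and 2 with normexp and among probes above background on all 16 arrays; leaving out 1 array gave 2 to 3. In tumor-bearing mice it was 3, with 2 to 4 over the alternatives. The promoters with GAAANNGAA were 2 of 9 on the forward strand alone, against 4.48% of all promoters. The cause of these moves was not tested, except that a stricter filter removes Slfn1, Slfn5 and Slfn14.

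Whether the replicate numbers pair the samples is not known. Samples of the same number correlated from -0.63 to 0.48 after group means were removed, and 5 of 16 correlated best with their own number. Many samples of the same number lay on different slides, so these correlations cannot decide whether a number marks a shared mouse or day. With the replicate block Slfn14 in CDPs had a limma adjusted p of 0.0632, and the block changed no other Schlafen call outside the MDP tumor comparison.

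Differences that were not called, or that lie near background, changed sign in places. With normexp Slfn3 had -0.086 in CDPs against MDPs of tumor-free mice and -0.034 in CDPs with tumor, and Slfn5 had -0.14 in CDPs against MDPs of tumor-free mice. Slfn5 in CDPs against MDPs of tumor-bearing mice was -0.067 with quantile normalization and -0.064 in the deposited table. With slide as a block, Slfn3 was 0.10 and the brighter Slfn8 probe -0.39 in the same comparison. On leaving out single arrays, the tumor difference in CDPs ran from -0.81 to 0.26 for Slfn1, from -0.13 to 0.19 for Slfn3, from -0.31 to 0.022 for the brighter Slfn9 probe and from -0.16 to 0.047 for the other. That between CDPs and MDPs ran from -0.18 to 0.17 for Slfn3 in tumor-bearing mice and from -0.029 to 0.18 for the Slfn9 probe that matches Slfn8 in tumor-free mice.

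The median of all tested probes in CDPs against MDPs of tumor-bearing mice was 0.19, and -0.003 after quantile normalization. Calls over all probes in CDPs with tumor were 494, 56 with only the groups compared, 1248 with slide as a block, 861 at an FDR under 0.10, 3 by the methods' t-test and 155 to 581 on leaving out 1 array (155 without CDP_PyMT replicate 4). They were 1673 in CDPs against MDPs of tumor-free mice and 2925 with slide as a block (1117 to 1504 on leaving out 1 array), and 1993 in tumor-bearing mice, 800 with only the groups compared, 3189 at an FDR under 0.10 and 608 by the methods' t-test (1127 without CDP_PyMT replicate 2 to 3288 without MDP_PyMT replicate 5). In MDPs with tumor they were 18, with 1 to 44 over the other alternatives and 1 to 46 on leaving out 1 array. Signal near background limits Slfn14, Slfn1, Slfn4 and Slfn5, whose folds are bounds, not given or, for Slfn14 in CDPs, drawn partly from samples below background.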

Other observations

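Related genes outside the family list were read in the same way. Slfn10-ps, a Schlafen pseudogene in the same cluster, was tested and differed by -0.47 in CDPs with tumor (limma adjusted p = 0.302). Probes of Slfnl1 and Slfn5os were not above background in enough samples to be tested.

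Slfn1 had its highest value in the sample numbered 2 in each of the 4 groups: -5.08 and -5.20 in MDPs, which were below background, and 0.49 and -0.56 in CDPs. This was noticed after the values were seen and was not tested.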
